A study of Oryza sativa with 6 samples.

Results

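L-type lateral roots of rice (Oryza sativa) were compared between the cultivars IR29 and Mulai, with 1 library on each side. The loci described are those with a scaled count of at least 10 in at least 1 of the 2 L-type libraries, which were 19976 of the 38042 loci in the table. The study measured messenger RNA by strand-specific sequencing of total RNA from nodal roots, S-type laterals and L-type laterals of both cultivars, 6 libraries in all. The labels call Mulai salinity tolerant and IR29 salinity sensitive, name no salt treatment for any library, and give all plants the same day and night growth conditions. They do not say how many plants a library holds, and each cultivar's libraries carry pointers to an older record set of their own, so that a batch of growth or sequencing and the cultivar cannot be told apart. A scaled count is the number of fragments of a locus multiplied by 1 factor for its library.

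The root system of a rice plant is built mostly from nodal roots, which arise at nodes of the stem. They carry laterals of different kinds. S-type laterals are short, thin and unbranched and make up much of the absorbing surface, whereas L-type laterals are longer and thicker, keep growing and branch again, so that they extend the volume of soil a plant can reach. The loci carry only identifiers from the assembly, and 0 of the 38042 matched the gene table that was at hand. No gene, pathway or cell type could therefore be named, and the labelled root type could not be checked against marker genes. The loci are described by their levels, by their direction and by what they did in the other root types.

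Summed over the 38042 loci, the Mulai L-type library held 5631504 reads and the IR29 L-type library 3891153, the shallowest of the 6. Reads here are fragments assigned to loci, recovered from the scaled counts, and those outside the loci are not seen. A read was worth 0.855 units of scaled count in the Mulai and 1.17 units in the IR29 library. Across the 17687 loci that reached a scaled count of 10 in each of the 3 pairs, the log2 levels of the Mulai L-type library correlated at r = 0.65 with the IR29 L-type library, at r = 0.69 with the IR29 nodal library and at r = 0.70 with the IR29 S-type library. Nodal roots correlated at r = 0.76 and S-type roots at r = 0.74 between the cultivars. The L-type libraries were thus the least alike of the 3 pairs, and the IR29 L-type library is 1 side of every result below, which could not be repeated without it. These values describe 6 libraries that share loci, and no p is given.

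In L-type roots 5046 of the 19976 loci were at least 2-fold lower in IR29 than in Mulai (25.3%), and 3259 were at least 2-fold higher (16.3%). Folds are differences of log2(scaled count + 1), which understate the change of low loci. With 1 library a side there is no replicate check and no test. In nodal roots 13.8% of 19963 loci were lower and 7.83% higher in IR29, and in S-type roots 13.8% of 19492 were lower and 15.9% higher. The L-type pair had the highest share of loci lower in IR29, and its share of higher loci lay close to that of the S-type pair.

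**Figure D1:**
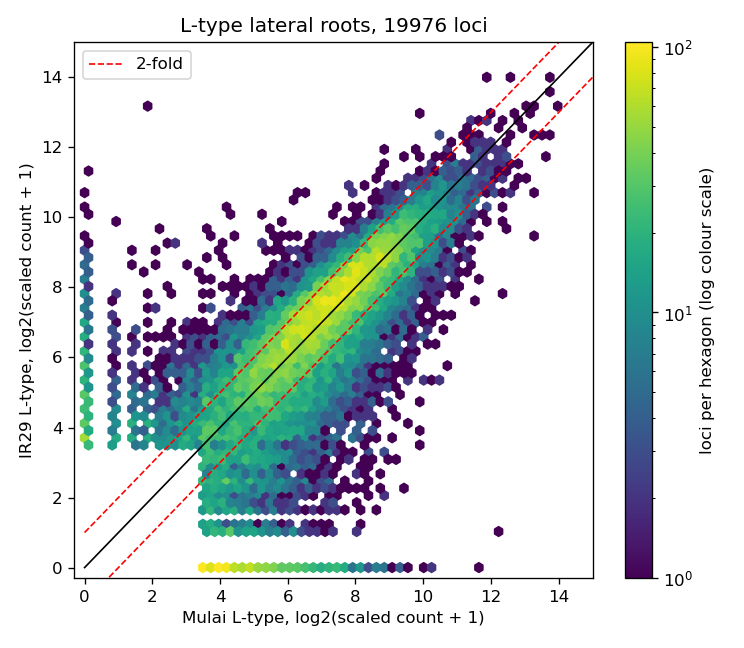
Level of each of the 19976 loci in the Mulai (horizontal axis) and IR29 (vertical axis) L-type library, both as log2(scaled count + 1), with the number of loci in a hexagon as colour. The solid line marks equal levels and the dashed lines 2-fold; 5046 loci lie on or below the lower dashed line and 3259 on or above the upper one.

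Folds of at least 4-fold were more one-sided than those of at least 2-fold. At least 4-fold lower in IR29 were 2740 loci (13.7%) and at least 4-fold higher 1188 (5.95%). In nodal roots 6.5% of the loci were 4-fold lower and 3.49% 4-fold higher, and in S-type roots 6.82% and 7.02%. At least 16-fold, 956 of the 19976 loci were lower and 423 higher, which was no more one-sided than at 4-fold. The same counts were 610 and 314 of 19963 loci in nodal roots, and 692 and 474 of 19492 in S-type roots. The lowest 5% of folds lay below -3.96 on the log2 scale and the highest 5% above 2.27. The median fold of all 19976 loci was -0.02, and the quartiles were -1.01 and 0.68. The lower side was thus heavier from the quartiles outward. A median close to 0 depends on the scaling, and it was -0.08 with TMM scaling, an alternative given below. The median absolute fold was 0.81 on the log2 scale, against 0.39 in nodal and 0.54 in S-type roots. Within 1.5-fold lay 38.5% of the loci in L-type roots, 52.6% in S-type and 63.4% in nodal roots.

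Loci near the threshold of 10 were read from few fragments. Of the 287 loci whose higher L-type value lay between 9 and 10, 60.6% were past 2-fold, and of the 265 between 10 and 11 it was 61.9%. The share past 2-fold depended on the level of the loci. At a mean scaled count of 10 to 50, 36.1% of 5527 loci were lower and 20.3% higher in IR29 L-type roots. At that level nodal roots had 22.7% and 12.1%, and S-type roots 21.8% and 20.8%. At 200 to 1000 it was 13.5% and 9.90% of 5422 loci in L-type roots. Nodal roots had 3.67% and 2.80% there, and S-type roots 4.82% and 10.4%. At both levels the share of higher loci in L-type roots thus lay close to that in S-type roots. Among the 775 loci with a mean of at least 1000, 17.7% were lower and 8.26% higher in L-type roots, against 1.88% and 4.35% of 851 loci in nodal and 5.74% and 17.6% of 1132 loci in S-type roots. In the L-type pair the share of lower loci thus exceeded that of higher loci at each of these levels, also where loci were read from many fragments.

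Exact 95% intervals for counting error in both libraries lay wholly past 2-fold for 3278 of the 5046 lower loci and for 1710 of the 3259 higher loci. These were 16.4% and 8.56% of the loci in L-type roots, against 7.29% and 4.24% in nodal and 6.92% and 9.34% in S-type roots. The intervals cover counting error only, and not the spread between plants or libraries.

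Of the 100 most abundant loci of the L-type pair, 19 were lower in IR29 and 14 higher by at least 2-fold. The same count in nodal roots was 2 lower and 4 higher, and in S-type roots 10 lower and 20 higher. Over all loci the shares were 25.3% lower and 16.3% higher in L-type roots. They were 13.8% and 7.83% in nodal roots, and 13.8% and 15.9% in S-type roots. In L-type roots both shares were thus smaller among the most abundant loci than over all loci.

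**Figure D2:**
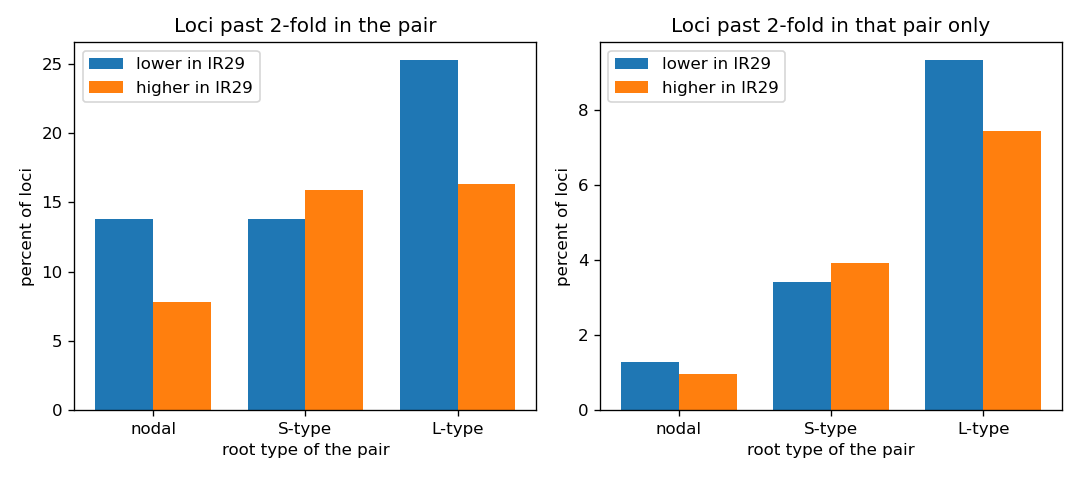
Percent of loci at least 2-fold lower (blue) or higher (orange) in IR29 than in Mulai, by root type, with 1 library a side. The left panel counts loci past 2-fold in the pair, 25.3% lower and 16.3% higher in L-type roots; the right panel counts loci past 2-fold in that pair and under 2-fold in both others, 9.34% lower and 7.45% higher in L-type roots.

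The cultivar differences of L-type roots were then set against those of the other root types, which come from other libraries. Of the 19976 loci, 17687 reached a scaled count of 10 in at least 1 library of both other pairs, 1045 did so in the nodal pair and not in the S-type pair, 762 in the S-type pair and not in the nodal pair, and 482 in neither. Loci that differed in both the nodal and the S-type pair mostly did so in L-type roots too. Of the 1087 loci at least 2-fold lower in IR29 in both, 952 (87.6%) were at least 2-fold lower in L-type roots, 131 were within 2-fold and 4 were at least 2-fold higher. Of the 730 loci at least 2-fold higher in both, 583 (79.9%) were higher in L-type roots, 121 were within 2-fold and 26 were at least 2-fold lower. The loci lower in all 3 pairs had a median scaled count of 61.1 in Mulai and of 0 in IR29 L-type roots, and those higher in all 3 a median of 2.57 in Mulai and of 93.7 in IR29.

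Across the 17687 loci the folds of the L-type pair correlated with those of the nodal pair at r = 0.78 and with those of the S-type pair at r = 0.67. The nodal and S-type folds correlated at r = 0.77. These values depended on the loci included: over the 2464 loci that averaged 500 or more across the 6 libraries they were 0.66 for L-type with nodal, 0.58 for L-type with S-type and 0.61 for nodal with S-type folds. With folds replaced by their ranks over all 17687 loci, r was 0.53 for L-type with nodal and 0.33 for L-type with S-type. For nodal with S-type folds it was 0.36. The same sign was seen for 66.7% of loci in L-type and nodal roots, for 59.9% in L-type and S-type roots and for 60.1% in nodal and S-type roots. By sign, the S-type pair thus stood about as far from the L-type as from the nodal pair. The pairs share no library, but they share cultivars and loci, and no p is given.

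Loci that differed in the L-type pair and not in the others formed the largest class of the loci past 2-fold in L-type roots. Among the 17687 loci, 1652 were at least 2-fold lower in IR29 L-type roots (9.34%) and 1317 at least 2-fold higher (7.45%), while their nodal and S-type folds both stayed under 2-fold. By the same rule 226 loci were lower (1.28%) and 168 higher (0.95%) in the nodal pair only, and 605 lower (3.42%) and 694 higher (3.92%) in the S-type pair only. Read another way, 24.7% of the 12021 loci that were within 2-fold in both the nodal and the S-type pair were past 2-fold in L-type roots. The corresponding share was 4.17% of 9446 loci for nodal and 12.5% of 10351 loci for S-type roots. With 6 libraries an interaction between root type and cultivar leaves nothing from which to estimate error, and these differences between pairs were not tested.

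The class lower only in the L-type pair made up 32.7% of all 5046 lower loci, and the class higher only there 40.4% of all 3259 higher loci. A further 529 lower and 158 higher loci shared their direction past 2-fold with the nodal pair alone, and 430 lower and 303 higher loci shared it with the S-type pair alone. For 904 lower and 786 higher loci at least 1 other pair was too low to be read. In 579 lower and 112 higher loci the nodal or the S-type fold was past 2-fold in the opposite direction.

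The sizes within these classes were unequal. The median fold of the 1652 lower loci was -1.58 in L-type roots, against -0.21 in nodal and -0.09 in S-type roots. The median fold of the 1317 higher loci was 1.29, against 0.23 and 0.15. At least 4-fold lower were 517 of the 1652 (2.92% of 17687) and at least 4-fold higher 93 of the 1317 (0.526%), and at least 8-fold the counts were 152 and 7. In the nodal pair only, 18 loci were 4-fold lower (0.102%) and 15 higher (0.0848%), and in the S-type pair only, 70 were lower (0.396%) and 130 higher (0.735%). Of the higher loci 383 lay between 2-fold and 2.2-fold, as did 263 of the lower loci. When the L-type fold also had to stand at least 1 log2 unit away from both other folds, 1079 lower and 625 higher loci were left. Counting intervals lay wholly past 2-fold for 921 of the 1652 lower loci (55.8%) and for 494 of the 1317 higher loci (37.5%).

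In scaled counts, the 1652 lower loci had medians of 145 in L-type, 140 in nodal and 117 in S-type roots of Mulai. In IR29 the medians were 122 in nodal and 114 in S-type roots, and 42.2 in L-type roots. The gap in L-type roots and the closeness of the cultivars in nodal and S-type roots are what the class was chosen for. Not set by the choice was which L-type library departed from its own cultivar, and here the Mulai L-type median lay near the nodal one, while the IR29 L-type median lay below both other IR29 medians. The class took 12.8% of all reads in the Mulai L-type library and 4.68% in the IR29 L-type library. In IR29 it took 13.7% of the nodal and 9.40% of the S-type reads. Of these loci 27 had no read in the IR29 L-type library.

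For the 1317 higher loci the medians in Mulai were 65.0 in L-type, 68.5 in nodal and 86.3 in S-type roots. In IR29 they were 172 in L-type, 81.9 in nodal and 93.2 in S-type roots. The cultivar gap is again set by the choice of the class. The Mulai L-type median lay near the nodal one, and the IR29 L-type median lay above both other IR29 medians. The class took 9.91% of the reads of that library, 3.62% of the Mulai L-type reads, and 4.29% and 5.14% of the IR29 nodal and S-type reads.

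**Figure D3:**
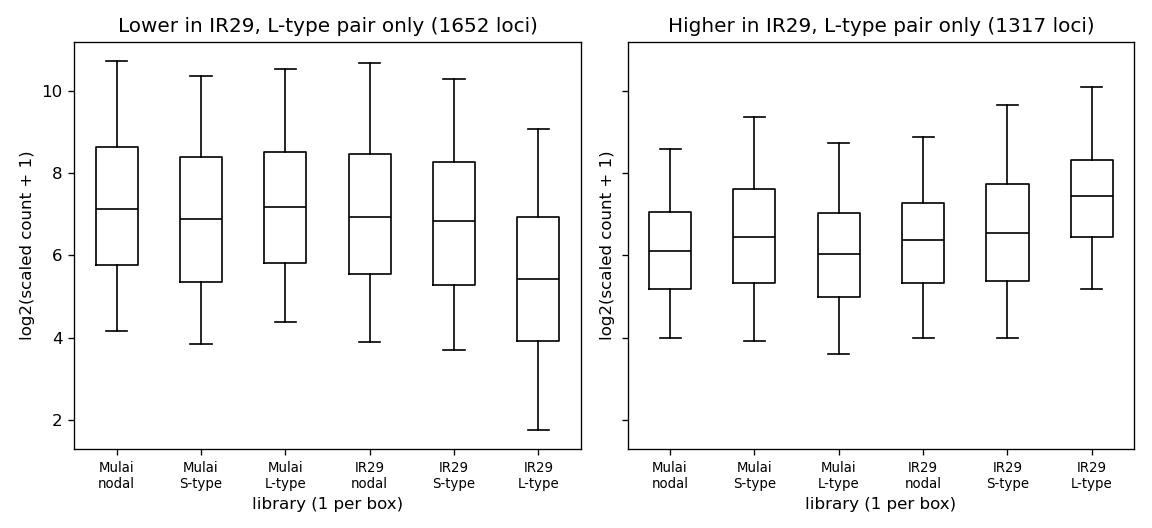
Levels in each of the 6 libraries, as log2(scaled count + 1), of the 1652 loci lower (left) and the 1317 loci higher (right) in IR29 in the L-type pair only. Boxes span the quartiles over loci with the median as a line, and whiskers the 5th to 95th percentile; the IR29 L-type box stands lowest on the left and highest on the right.

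The departure within each cultivar was counted locus by locus. Of the 1652 lower loci, 708 (42.9%) had an IR29 L-type value at least 2-fold below both the IR29 nodal and the IR29 S-type value. By contrast 21 had a Mulai L-type value at least 2-fold above both other Mulai root types. Of the 1317 higher loci, 242 (18.4%) had an IR29 L-type value at least 2-fold above both other IR29 values, and 25 a Mulai L-type value at least 2-fold below both other Mulai values. In 931 lower and 1051 higher loci the L-type value stood neither 2-fold below nor 2-fold above both other root types in either cultivar. Over all 17687 loci, the IR29 L-type value stood at least 2-fold below both other IR29 values in 8.68% and above both in 3.61%, and the Mulai L-type value below in 0.752% and above in 1.41%. In Mulai the L-type value lay between the nodal and the S-type value for 57.9% of the loci, and in IR29 for 41.4%.

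The other root types also gave a scale on which L-type roots could be placed. The L-type values entered only through the requirement of a scaled count of at least 10 in at least 1 L-type library. Loci were grouped by whether they were at least 2-fold higher in nodal than in S-type roots in both cultivars (2200 loci), higher in S-type roots by as much in both (2373), or within 2-fold in both (8313). Among the nodal-high loci 34.5% were past 2-fold on the lower side in IR29 L-type roots and 7.64% on the higher side, with a median fold of -0.53. Among the 2373 S-type-high loci 686 (28.9%) were lower and 356 higher, with a median of -0.15, and among the even loci 14.0% and 14.3%, with a median of 0.18. Over all 17687 loci 4142 were lower (23.4%) and 2473 higher (14.0%). The nodal-high, S-type-high and even groups held 759, 686 and 1162 of the 4142 lower loci. Many lower loci thus lay in none of these groups. Loci whose root type pattern differed between the cultivars are in no group and were not counted apart. The 2 directions were about equally frequent among even loci. Lower loci outnumbered higher ones among nodal-high and S-type-high loci, but also over all loci, so that this was not particular to those groups. These shares were not tested.

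The class lower only in the L-type pair held 449 nodal-high loci, 27.2% of its members, where 12.4% of all 17687 loci were nodal-high. It held 269 S-type-high loci (16.3%, against 13.4% of all) and 567 even loci (34.3%, against 47.0%). The class higher only in the L-type pair held 75 nodal-high loci (5.69%), 213 S-type-high loci (16.2%) and 783 even loci (59.5%). The share of nodal-high loci was thus above that of all loci in the lower class and below it in the higher class. This difference was not tested. Both classes could draw only on the 12021 loci within 2-fold in both the nodal and the S-type pair. The shares of the groups among those loci were not counted.

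On a scale where 0 is the nodal level and 1 the S-type level of the same cultivar, the nodal-high loci had a median L-type position of 0.42 in Mulai (lower quartile 0.22) and of 0.62 in IR29 (lower quartile 0.28). The S-type-high loci had a median position of 0.53 in Mulai (lower quartile 0.36) and of 0.48 in IR29 (lower quartile 0.14). L-type roots of Mulai lay outside the range from nodal to S-type for 12.7% of the nodal-high and 14.1% of the S-type-high loci. For IR29 these shares were 37.0% and 28.2%. In IR29, 25.0% of the nodal-high loci were lower in L-type than in S-type roots, against 4.41% in Mulai. Likewise 17.8% of the S-type-high loci were lower in L-type than in nodal roots in IR29, against 3.71% in Mulai. In bulk roots, fewer cells of a type and less RNA per cell cannot be told apart.

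**Figure D4:**
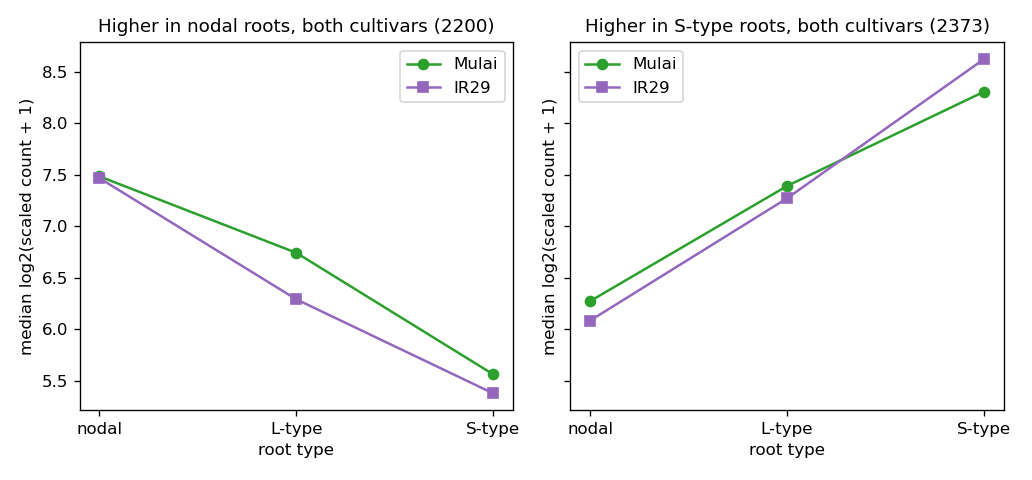
Median level, as log2(scaled count + 1), in nodal, L-type and S-type roots of Mulai (circles) and IR29 (squares) for 2200 loci at least 2-fold higher in nodal than in S-type roots in both cultivars (left) and 2373 loci higher in S-type roots by as much (right). For the nodal-high loci the L-type median was 6.74 in Mulai and 6.29 in IR29.

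Some loci were read on 1 side only. A scaled count of at least 10 in Mulai L-type roots stood against no read in IR29 L-type roots for 983 loci (4.92% of 19976), with a median scaled count of 24.8 in Mulai. The reverse held for 427 loci (2.14%), with a median of 30.4 in IR29. With 3 reads taken as the floor of the library without reads, the median locus was at least 7.06-fold lower in IR29 in the former class and at least 11.9-fold higher in the latter. The Mulai library was the deeper one, and with all libraries thinned to 3891153 reads the counts were 948 and 475.

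Most of these loci were also unread in the other roots of the same cultivar. No read was found in any of the 3 IR29 libraries for 577 of the 983 loci, and none in any of the 3 Mulai libraries for 312 of the 427. Another 54 of the 983 loci had a scaled count of at least 10 in both the nodal and the S-type library of IR29 and no read in its L-type library. Their median scaled counts were 17.3 in IR29 nodal, 21.8 in IR29 S-type and 25.2 in Mulai L-type roots. The reverse, no read in Mulai L-type roots and at least 10 in both other Mulai libraries, was found for 0 of the 427 loci. A read was worth more scaled count in each IR29 library than in the Mulai library of the same root type. A scaled count of 10 was therefore reached on fewer reads in IR29. The counts of 54 and 0 were not repeated in thinned reads, and how far depth set their contrast was not tested. Of the 427 loci, 226 reached 10 in both other IR29 libraries and 8 had no read in them.

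The 4 loci given by identifier have the 2 largest folds in each direction among the loci that differed in the L-type pair only, with a scaled count of at least 100 in an L-type library and of at least 50 in each of the other 4 libraries. The rule left 872 lower and 688 higher loci to choose from. XLOC_027530 had scaled counts of 248 in L-type, 892 in nodal and 132 in S-type roots of Mulai. In IR29 it had 1.17 in L-type, 517 in nodal and 125 in S-type roots. The IR29 L-type library alone was low, with 1 read against 290 in Mulai. The ratio of Mulai to IR29 was 212 in L-type roots (exact 95% counting interval 37.7 to 8392), 1.73 in nodal roots (1.55 to 1.92) and 1.06 in S-type roots (0.801 to 1.40).

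XLOC_018696 had scaled counts of 256 in L-type, 291 in nodal and 104 in S-type roots of Mulai. In IR29 it had 2.34 in L-type (2 reads), 499 in nodal and 149 in S-type roots. The IR29 L-type library was again the low one, while the IR29 nodal and S-type values stood above those of Mulai. The ratio of Mulai to IR29 in L-type roots was 109 (30.0 to 906), against 0.583 in nodal (0.511 to 0.665) and 0.699 in S-type roots (0.531 to 0.924).

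XLOC_006589 had scaled counts of 238 in L-type, 690 in nodal and 299 in S-type roots of Mulai. In IR29 it had 1911 in L-type, 839 in nodal and 322 in S-type roots. L-type roots were the lowest root type in Mulai and the highest in IR29. The ratio of IR29 to Mulai was 8.04 in L-type roots (7.08 to 9.16), 1.22 in nodal (1.11 to 1.34) and 1.08 in S-type roots (0.902 to 1.28).

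XLOC_014371 had the same order of libraries at a lower level. Its scaled counts were 71.0 in L-type, 144 in nodal and 95.2 in S-type roots of Mulai, and 516 in L-type, 187 in nodal and 110 in S-type roots of IR29. The ratio of IR29 to Mulai was 7.28 in L-type roots (5.74 to 9.31), 1.30 in nodal (1.06 to 1.59) and 1.15 in S-type roots (0.844 to 1.57). The 2 lower loci thus had ratios far larger than the 2 higher loci, and their intervals, which rest on 1 or 2 reads in IR29, were far wider.

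**Figure D5:**
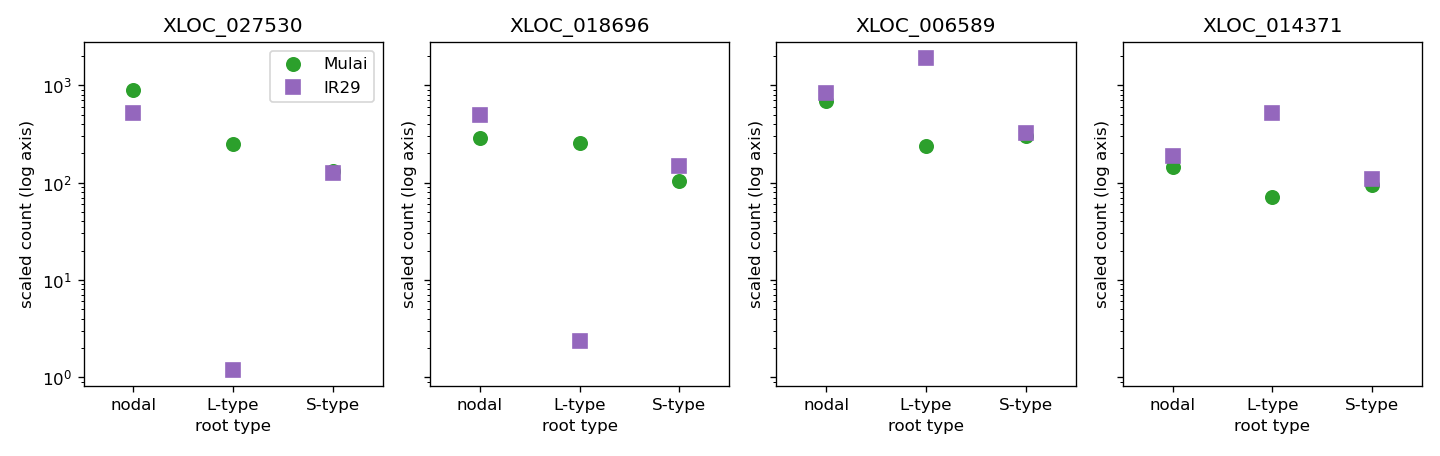
Scaled counts (log axis) of 4 loci in the 3 root types of Mulai (circles) and IR29 (squares), 1 library per point. XLOC_027530 and XLOC_018696 had 1.17 and 2.34 in IR29 L-type roots, and XLOC_006589 and XLOC_014371 reached 1911 and 516 there.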

How the data were processed

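Strand-specific messenger RNA libraries of 2 cultivars and 3 root types were used, 1 library per group, grouped by the sample labels. The submitters' processing notes list the build IRGSP-1.0 and the tools Cuffdiff 2.2.1, Cufflinks 2.2.1, TopHat2 2.0.11, Bowtie and Trimmomatic 0.32. No source used here states the annotation, the strand setting or the treatment of multiply aligned reads. Overlapping or near-identical loci are therefore uncertain. The authors deposited a signal per locus and library: fragment counts multiplied by 1 factor per library, per the file headers and the values. The reads were recovered by dividing by the value of 1 read, which left whole numbers (tolerance 0.1 of a read) for 100% of nonzero values. A deposited assignment variance, recorded here as a score, was 0 for all 38042 loci in both L-type libraries. The 22 other variance and status columns were not used.

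Folds are IR29 minus Mulai on log2(scaled count + 1). A locus was read in a pair at a scaled count of at least 10 in 1 of its 2 libraries. The threshold was 2-fold, with no test. Ratios carry exact (Clopper-Pearson) 95% intervals, which cover counting error only, and libraries differed in depth from 3891153 to 7904454 reads assigned to loci. Identifiers were looked up in RefSeq genes (ASM3414082v1, 39387 rows). The loci named had the 2 largest folds in each direction among those past 2-fold in the L-type pair only, at 100 or more in an L-type library and 50 or more in each of the other 4. The members, rules and lists were chosen with earlier results of these data known. The code that assigns loci to the 2-fold classes was run on simulated counts as a software check, which says nothing about the real libraries. Alternatives were filters at 0 and at 50, pseudocounts of 0.5 and 5, TMM (edgeR 4.0.16, factors only) and median ratio scaling, thinning to 3891153 reads, and stricter class rules. Python 3.11.15, scipy 1.17.1 and R 4.3.3 were used.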

Additional observations from a re-analysis of the deposited data

Results flagged for a closer look

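Of the 17687 loci that reached a scaled count of 10 in each of the 3 pairs, a small set of 30 stood apart. These 30 moved at least 2-fold one way in the L-type pair, and at least 2-fold the other way in both other pairs. Of these, 26 were lower in IR29 L-type roots and higher in IR29 nodal and S-type roots, and 4 were the reverse. The 26 loci had median scaled counts of 64.6 in Mulai and 15.8 in IR29 L-type roots, against 13.2 and 33.4 in nodal and 25.4 and 120 in S-type roots. By the same rule the nodal pair stood against both others in 11 loci lower and 9 loci higher in IR29. The S-type pair did so in 4 loci lower and 155 higher, so that such loci were not particular to the L-type pair. XLOC_018696 also had an L-type fold of -6.26 on the log2 scale beside nodal and S-type folds of 0.78 and 0.51. With 1 library a side, no test of these differences between root types was possible.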

How the results depend on the processing

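The alternatives changed the counts of loci mainly through the filter and the class rules. With a filter at 50 in place of 10, which left 14448 loci, the loci at least 2-fold lower numbered 2899 and higher 2138, those lower and higher in the L-type pair only 1070 and 840, those with IR29 L-type roots under or over both other IR29 roots 419 and 116, and those read in Mulai or in IR29 alone 270 and 155. Without a filter the latter were 3955 and 1394. By counting intervals wholly past 2-fold, 3278 loci were lower and 1710 higher. With less than 1.5-fold required in the other pairs, 843 loci were lower and 771 higher in the L-type pair only, and with a gap of 1 log2 unit to both other folds 1079 and 625. The median absolute fold (0.81) was 0.75 with a pseudocount of 5, 0.89 without a filter and 0.70 with the filter at 50. The correlation of L-type with nodal folds (0.784) was 0.804 and 0.723 with pseudocounts of 0.5 and 5, 0.777 in thinned reads, 0.718 unfiltered and 0.800 at the filter of 50. That with S-type folds (0.667) was 0.700 and 0.574 with pseudocounts of 0.5 and 5, 0.598 without a filter and 0.698 with the filter at 50. The filter tests fewer loci and the class rules are stricter by construction; otherwise the cause was not tested. The other 64 values stayed within 1.5 times, for counts, or within a tolerance, for the median and the correlations. That tolerance was a 95% interval that takes loci as independent, and it is a yardstick and not a test. Counts within 1.5 times could still change: without a filter 7258 loci were at least 2-fold lower and 4542 higher. With TMM scaling 1785 loci were lower and 1140 higher in the L-type pair only. The 4 loci given by identifier stayed within their counting intervals in all 32 values. A filter cannot change the fold of a locus, so their values under both filters were fixed in advance. The intervals of the 2 lower loci rest on 1 or 2 reads in IR29 L-type roots and are wide, so staying within them says little. In thinned reads 1459 of the 1652 lower and 1121 of the 1317 higher loci kept their class. Centring each pair on the fullest class of its folds was chosen after the data were seen. It shifted the L-type pair by 0, so values that rest on that pair alone could not move there. Such values are among the 64 and the 32. Leaving out loci with a high deposited assignment variance removed none, since it is 0 throughout. No paired analysis was possible because the L-type comparison has 1 library a side; pairing the cultivars over all 3 root types would address the difference they share and not that of L-type roots. With 1 library a side none could be left out, and depth limits the folds of loci near a scaled count of 10.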
